A study of Mus musculus with 6 samples.

Results

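Trophectoderm transcription factors are the regulators that set up and maintain the first extraembryonic lineage of the mouse embryo, and 8 of them are described here: Cdx2, Gata2, Gata3, Tfap2a, Tfap2c, Elf5, Tead4 and Hand1. They were chosen by gene name from the authors' comparison table, in which 7 of the 8 had a row among 17110 genes. Elf5, an ETS factor that maintains the trophoblast stem cell state, had no row and was not analysed here. The study sorted mouse embryonic stem cells of a line labelled TG2A by a fluorescent reporter under the control of MERVL, an endogenous retrovirus that is active in the early cleavage embryo and in a rare state of cultured stem cells. All groups carried the reporter (genotype MERVL::Fluorescent protein) and were grown in serum with leukemia inhibitory factor (mLIF). The labels list 2 groups, DsRed2+ and DsRed2-, with 3 samples each, collected on separate days. Only the 1 line is named, and the labels do not say whether it is a single clone.

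In the embryo, the outer cells of the morula acquire a polar surface that switches off Hippo kinase signalling. YAP and TAZ then enter the nucleus and bind TEAD4, and this complex, together with Notch input, turns on Cdx2. CDX2, GATA3 and the AP-2 factors open the trophoblast programme and shut down the pluripotency factors, ELF5 keeps trophoblast stem cells in place, and HAND1 and GATA2 act later in giant cells and the placenta. Embryonic stem cells come from the inner cell mass and hold this programme largely silent. Several of these factors also have roles outside the trophoblast: Cdx2 and Hand1 in the primitive streak and its mesoderm, Tfap2a in ectoderm and neural crest, Gata2 in blood, and Tfap2c in germ cells.

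The comparison was read from the authors' deposited table, which gives for each gene 1 log2 fold change, written below as the value ± its standard error (SE). It names neither the groups nor the numerator of the ratio. It is taken here to compare the sorted groups, the only ones in the labels, and a negative value means lower in the group the authors placed in the numerator, whichever sorted group that is. A gene is called negative or positive below where the adjusted p of the authors' deposited table is under 0.05. Values per sample and library depths are not analysed here, because the 6 count columns have names that match no sample label. Embryonic stem cell markers were abundant: 8 of 9 listed had a row, with mean normalized counts up to 38163 for Dppa5a and 32810 for Pou5f1 in the authors' deposited table. Of 9 listed markers of the MERVL-positive state, only Calcoco2 had a row, with 3.10 as its log2 fold change in the authors' deposited table.

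All 7 factors with a row had a negative log2 fold change in the authors' deposited table, between -5.82 and -0.20 with a median of -1.62, while the median over all genes was 0.0097. Cdx2, Hand1 and Tfap2a, 3 of the 7, were called negative and 0 were called positive in the authors' deposited table, against 15.9% and 14.6% of all genes. The call of the authors, which also asks for an absolute log2 fold change over 0.5, was down for the same 3 genes and for 12.1% of all genes in the authors' deposited table. Tfap2c, Gata3, Gata2 and Tead4 did not pass. An unadjusted p-value under 0.05 was reached by 4 of the 7, the 3 called genes and Tfap2c, in the authors' deposited table. In sorted populations measured in bulk, fewer cells that express a gene and less RNA per cell cannot be told apart.

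**Figure D1:**
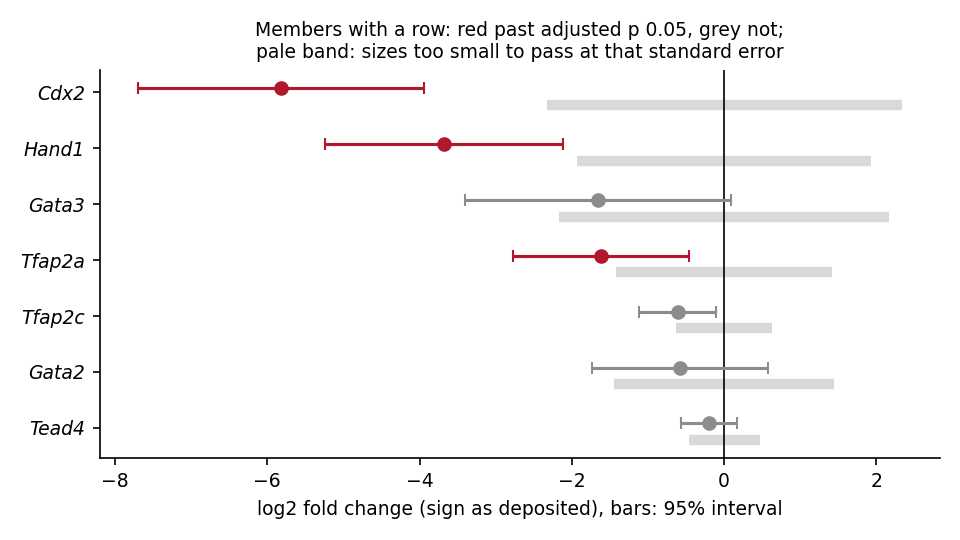
Log2 fold change (horizontal axis, sign as deposited) of the 7 factors with a row, with 95% intervals as bars; the pale band under each gene spans the sizes that could not pass at its standard error. Cdx2 at -5.82, Hand1 at -3.68 and Tfap2a at -1.62 (red) lie outside their bands, and the other 4 (grey) lie within theirs.

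Cdx2 (ENSMUSG00000029646, chromosome 5), the homeodomain factor that defines the trophectoderm, showed the most negative value of the 7. Its log2 fold change in the authors' deposited table was -5.82 ± 0.96 (SE; adjusted p = 2.11e-08). On the linear scale this is 56.6-fold lower in the numerator group, with a 95% interval from 15.4-fold to 209-fold computed from the authors' deposited table. Only 41 of the 17110 genes, or 0.24%, were more negative than Cdx2 in the authors' deposited table. Its mean normalized count over the libraries was 129.5 in the authors' deposited table. Split by the fold change, with 3 libraries assumed on each side, that mean corresponds to about 4.5 in the numerator group and 255 in the denominator group. By this estimate, Cdx2 RNA was near the lower end of counting in one sorted group and readily counted in the other.

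Hand1 (ENSMUSG00000037335, chromosome 11), a helix-loop-helix factor needed for trophoblast giant cells, followed. The authors' deposited table gave it a log2 fold change of -3.68 ± 0.80 (SE; adjusted p = 3.31e-05) at a mean normalized count of 25.8. This is 12.8-fold lower in the numerator group, with a 95% interval from 4.35-fold to 37.8-fold computed from the authors' deposited table. The implied means were about 3.74 and 47.9 normalized counts. The 95% interval of Hand1 overlapped that of Cdx2.

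The AP-2 factors Tfap2a (ENSMUSG00000021359, chromosome 13) and Tfap2c (ENSMUSG00000028640, chromosome 2) bind the same GC-rich sequence and act beside CDX2 in trophoblast. Tfap2a had a log2 fold change of -1.62 ± 0.59 (SE) in the authors' deposited table (adjusted p = 0.0218), which is 3.07-fold lower in the numerator group with a 95% interval from 1.39-fold to 6.81-fold. Its implied means were about 16.6 and 51.1 normalized counts. Tfap2c had a log2 fold change of -0.61 ± 0.26 (SE) in the authors' deposited table (adjusted p = 0.0635). Tfap2c was the more abundant of the pair per transcript length, with a mean of 595.2 normalized counts per kilobase of its longest transcript against 9.72 for Tfap2a, computed from mean counts of 1777 and 33.9 in the authors' deposited table. Their 95% intervals, from -2.77 to -0.47 and from -1.12 to -0.09, overlapped. When the fold changes were centred on 75 ribosomal protein genes, whose median was 0.093, Tfap2c moved to -0.70 and passed the threshold. That centring also changed the split over all genes, to 3508 negative and 1864 positive calls from 2719 and 2492 in the authors' deposited table. The call of Tfap2a was lost at an adjusted p-value under 0.01 and in a test against an absolute log2 fold change of 0.5.

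Gata3 (ENSMUSG00000015619, chromosome 2) and Gata2 (ENSMUSG00000015053, chromosome 6) are zinc-finger factors, the first acting in parallel to CDX2 under TEAD4 and the second in placental gene expression. Gata3 had a log2 fold change of -1.66 ± 0.89 (SE) in the authors' deposited table (adjusted p = 0.157), nearly the same value as Tfap2a with a wider error. Its mean normalized count of 13.7 in the authors' deposited table was the lowest of the 7. At that standard error a gene needed an absolute log2 fold change of 2.17 to pass, so a change of the size of that of Tfap2a was not detectable for Gata3. Gata2 had a log2 fold change of -0.58 ± 0.59 (SE) in the authors' deposited table (adjusted p = 0.513) at a mean normalized count of 21.7. Its 95% interval, from -1.74 to 0.58, spans changes in both directions. Both GATA genes were detected in few reads, and neither was shown to change or to stay level.

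Tead4 (ENSMUSG00000030353, chromosome 6), the DNA-binding partner of YAP that stands at the top of the programme, had the value closest to 0. Its log2 fold change was -0.20 ± 0.19 (SE) in the authors' deposited table (adjusted p = 0.469) at a mean normalized count of 238.2. The 95% interval ran from -0.58 to 0.17, so the data bound a decrease in the numerator group at 1.49-fold. Its implied means, about 221 and 255 normalized counts, were similar. The intervals of Cdx2 and Hand1 did not overlap that of Tead4. Over all 21 pairs of the 7 factors, the intervals of 8 pairs did not overlap, and each of these pairs contained Cdx2 or Hand1. Differences between genes were not tested, because their fold changes share libraries and the covariance is unknown.

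**Figure D2:**
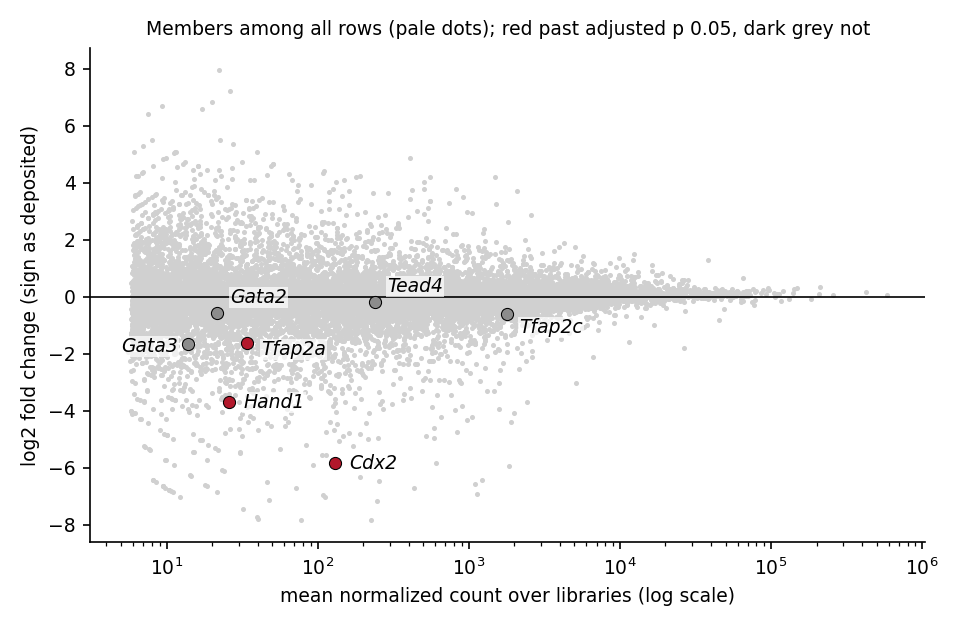
Log2 fold change (vertical axis, sign as deposited) against the mean normalized count over libraries (horizontal log axis) for all 17110 genes (pale dots) and the 7 factors. Cdx2 at -5.82 and Hand1 at -3.68 lie below most of the cloud, while Gata2 at -0.58 and Tead4 at -0.20 lie within it.

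The order of RNA levels was read per kilobase of the longest transcript in GENCODE M21 (GRCm38), since counts of genes of unequal length are not comparable. Tfap2c stood first with a mean of 595.2 normalized counts per kilobase computed from the authors' deposited table. Tead4 and Cdx2 followed with 77.4 and 57.3 on this scale, then Hand1 with 13.6, Tfap2a with 9.72, Gata2 with 6.06 and Gata3 with 4.28. The order differed between the sorted groups. In the denominator group, the implied level of Cdx2 was 113 per kilobase, above Tead4 at 82.9 and below Tfap2c at 718. In the numerator group, Cdx2 at 1.99 per kilobase was close to Gata3 at 2.06 and far below Tead4 at 72.0 and Tfap2c at 472. The table gives no error for a mean, so neighbours in these orders were not separated beyond the errors of their fold changes.

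Promoter windows of RefSeq (GRCm38.p6, 250 bases before to 50 bases from the annotated start on) were available for Cdx2, Gata2, Gata3, Tfap2a and Elf5. The 4 shown are that of Cdx2, the factor with the most negative value, and 1 each of Gata3, Gata2 and Tfap2a, chosen because they hold letters bound by other factors of the group. Each is written 5′ to 3′ in the direction of the gene, and capitals mark every match to the searched letters. The letters were searched on both strands. For TEAD factors they were CATTCC, for zinc fingers of the GATA family AGATAA and for the homeodomain of CDX proteins TTTATG. Factors of the AP-2 family were searched as GCCNNNGGC, ETS factors such as ELF5 as CCGGAAGT and the E-box of helix-loop-helix proteins as CAGCTG. A composite motif of SOX and OCT factors was searched as well, and none of the motifs overlapped in these windows. The windows are chr5:147307200-147307499 on the minus strand for Cdx2, chr2:9878551-9878850 on the minus strand for Gata3, chr6:88198414-88198713 on the plus strand for Gata2 and chr13:40734871-40735170 on the minus strand for Tfap2a.
Cdx2: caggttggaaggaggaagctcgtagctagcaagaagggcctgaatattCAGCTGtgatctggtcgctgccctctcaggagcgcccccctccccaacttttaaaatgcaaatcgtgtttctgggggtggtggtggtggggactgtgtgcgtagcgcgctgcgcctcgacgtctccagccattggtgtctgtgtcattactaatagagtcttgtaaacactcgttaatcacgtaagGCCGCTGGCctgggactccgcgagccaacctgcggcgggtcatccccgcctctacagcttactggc
Gata3: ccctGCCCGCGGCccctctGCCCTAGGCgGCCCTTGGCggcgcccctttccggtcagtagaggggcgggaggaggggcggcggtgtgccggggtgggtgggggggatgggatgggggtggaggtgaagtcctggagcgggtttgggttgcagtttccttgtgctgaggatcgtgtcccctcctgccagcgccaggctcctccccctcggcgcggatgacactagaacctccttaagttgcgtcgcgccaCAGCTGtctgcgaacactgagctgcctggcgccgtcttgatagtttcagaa
Gata2: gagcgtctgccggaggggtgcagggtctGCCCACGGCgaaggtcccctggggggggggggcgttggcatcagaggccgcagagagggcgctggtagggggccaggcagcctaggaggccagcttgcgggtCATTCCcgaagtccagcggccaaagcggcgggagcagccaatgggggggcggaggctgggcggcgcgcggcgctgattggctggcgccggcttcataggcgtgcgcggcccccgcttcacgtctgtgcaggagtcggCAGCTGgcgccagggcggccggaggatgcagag
Tfap2a: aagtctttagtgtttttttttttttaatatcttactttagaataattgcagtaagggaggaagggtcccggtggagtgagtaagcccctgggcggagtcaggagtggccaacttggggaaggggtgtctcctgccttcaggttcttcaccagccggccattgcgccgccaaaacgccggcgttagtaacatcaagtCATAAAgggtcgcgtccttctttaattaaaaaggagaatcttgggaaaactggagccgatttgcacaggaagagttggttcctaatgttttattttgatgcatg

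The Cdx2 window holds 1 AP-2 match, beginning at position -16 relative to the start, and 1 E-box at -202. The Gata3 window holds 3 AP-2 matches at its far end, at -246, -231 and -221, and an E-box at -1. The Gata2 window, at the second annotated start of that gene, holds the TEAD letters at -120, an AP-2 match at -222 and an E-box at 18. The Tfap2a window holds CATAAA, the reverse complement of the CDX letters, at -54. Over the 8 windows of the 5 genes, 3 held an AP-2 match, 2 the TEAD letters, 2 the CDX letters and 4 the E-box. Of these windows, 1 of Elf5, which holds TEAD letters and an E-box, was not found near the start of a GENCODE M21 transcript. Among all 32851 windows of the RefSeq table the shares were 16.6%, 14.7%, 11.9% and 16.3%. The GATA, ETS and composite letters were found in 0 of the 8 windows and in 11.2%, 3.89% and 0.0213% of all windows. The GC content of the 4 printed windows was 57.3% for Cdx2, 67.3% for Gata3, 73.7% for Gata2 and 46.3% for Tfap2a, against a median of 52.7% over all windows. A match is a description of the letters and not a bound site.

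The precision of the 7 values differed. The standard error of Cdx2, 0.96, exceeded that of 99.7% of the 1511 genes within 1.5-fold of its mean count in the authors' deposited table, whose median was 0.26. The standard errors of the 3 genes nearest to Cdx2 in mean count lay between 0.22 and 0.33 in the authors' deposited table. Tfap2c, at 0.26, exceeded 98.6% of its 2430 comparable genes, whose median was 0.11 in the authors' deposited table. Counting alone would give Tfap2c a standard error of about 0.029 at its implied means, 9.2 times less than deposited. Counting error shrinks as the mean count grows, so this ratio is not comparable with those of the less abundant factors. Against genes of similar mean count, the standard error of Tfap2c was 2.3 times the median. For the other 6 factors, the ratio of the deposited to the counting error lay between 1.8 for Hand1 and 2.5 for Tfap2a and Tead4. For Cdx2 it was 2.4. At its implied means of about 4.5 and 255, counting alone would give Cdx2 about 0.4, already above the median of its comparable genes. Tead4 was typical of its count, with a standard error above that of 44.8% of comparable genes in the authors' deposited table. The spread between libraries was not analysed here for any factor.

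**Figure D3:**
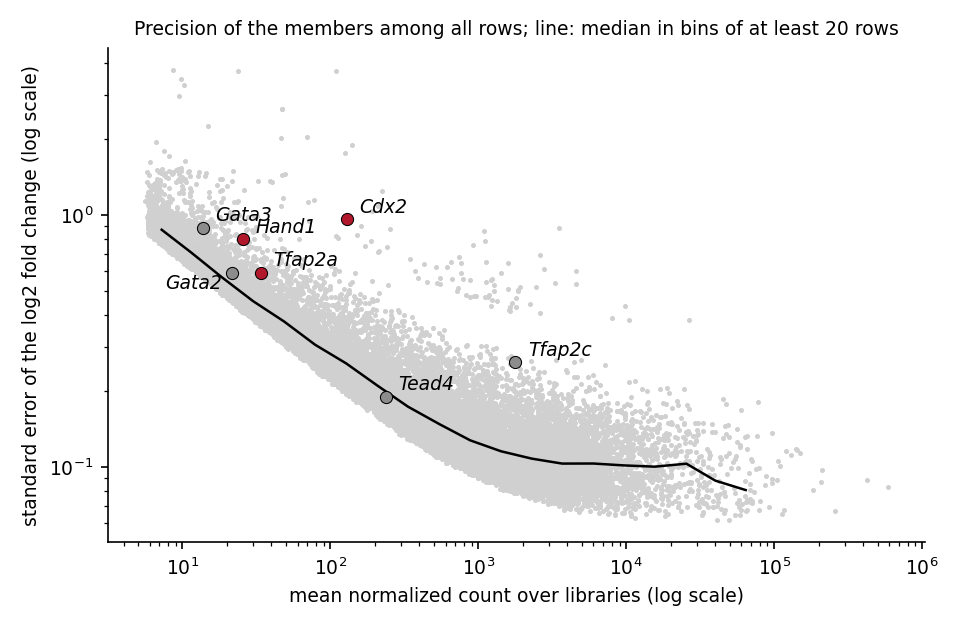
Standard error of the log2 fold change (vertical log axis) against the mean normalized count (horizontal log axis) for all genes (pale dots) and the 7 factors; the line is the median in bins of mean count. Cdx2 at 0.96 and Tfap2c at 0.26 lie above the line at the upper edge of the cloud, and Tead4 at 0.19 lies on it.

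A low mean count also limits the calls. Of the 4 factors with a mean count under 50, Hand1 and Tfap2a were called negative, and 11.2% of all genes in that range were called negative in the authors' deposited table. Of the 3 factors with a higher mean count, Cdx2 was called negative, against 17.5% of all genes in that range in the authors' deposited table. To pass, a gene with the standard error of Tead4 needed an absolute log2 fold change of 0.465, with that of Tfap2c 0.634, with that of Gata2 1.44 and with that of Cdx2 2.33.

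Paralogs of the factors, which share their DNA-binding domains, were examined next, and 13 of 18 listed had a row. Of these 13, 3 were called negative (Tead3, Tead1 and Elf2) and 0 positive in the authors' deposited table, against 15.9% and 14.6% of all genes. The median log2 fold change of the paralogs was -0.19. Cdx1 and Cdx4, which act with Cdx2 in the posterior embryo, stood at 0.33 ± 0.54 and 0.31 ± 1.0 (SE) on the log2 scale of the authors' deposited table. The interval of Cdx2, from -7.70 to -3.94, lay below those of Cdx1 and Cdx4, whose lower bounds were -0.74 and -1.66. Among the TEAD genes, Tead3 had a log2 fold change of -1.45 ± 0.24 (SE) in the authors' deposited table (adjusted p = 3.78e-08), and its interval, from -1.93 to -0.98, lay below that of Tead4. Tead1 stood at -0.46 ± 0.13 (SE) in the authors' deposited table (adjusted p = 0.00213). Tead2 stood at -0.17 ± 0.10 (SE) in the authors' deposited table (adjusted p = 0.211). The mean normalized counts of Tead1, Tead2 and Tead3, not scaled by length, were 4806, 3144 and 203.8 in the authors' deposited table.

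Among the other GATA genes, Gata6 and Gata4, factors of the primitive endoderm, stood at -1.37 and -0.59 (log2) in the authors' deposited table at mean normalized counts of 9.05 and 14.7, without a call. Gata1, the erythroid factor, had 1.24 ± 0.55 (SE) in the authors' deposited table, which did not pass (adjusted p = 0.0755). Tfap2e stood at -0.24 ± 0.50 (SE) in the authors' deposited table, without a call. In the family of Elf5, Elf2 had -0.27 ± 0.094 (SE) in the authors' deposited table (adjusted p = 0.0192). Elf1 at 0.25, Elf3 at 0.17 and Elf4 at -0.19 were without a call in the authors' deposited table. Hand2, Gata5, Tfap2b, Tfap2d and Ehf had no row and were not analysed here.

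**Figure D4:**
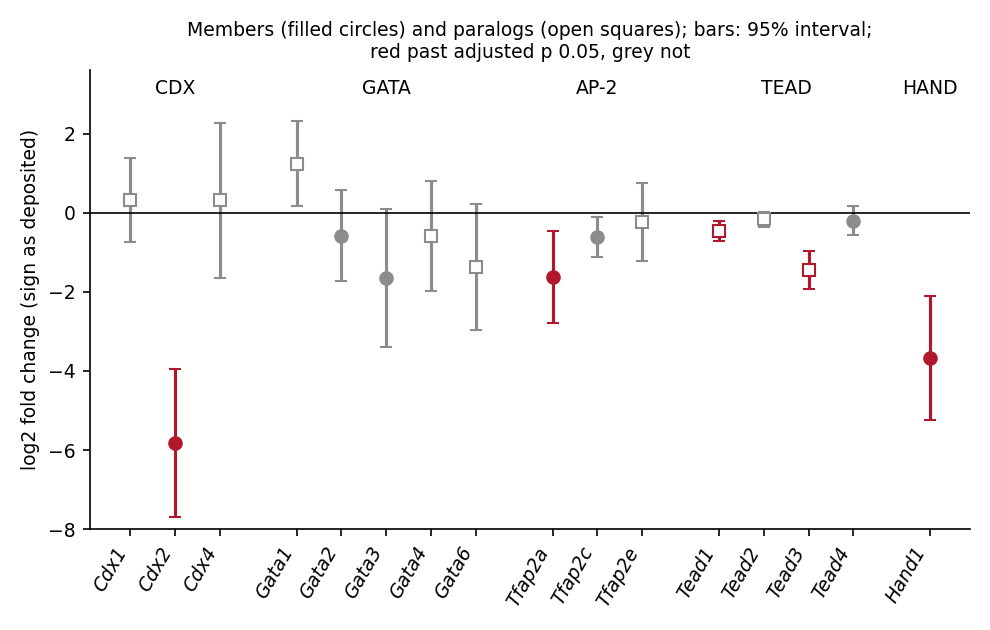
Log2 fold change (vertical axis, sign as deposited) with 95% intervals for the members (filled circles) and their paralogs with a row (open squares), by family and without the ELF genes. Cdx2 at -5.82 lies apart from Cdx1 and Cdx4, and Tead3 at -1.45 is the lowest TEAD gene.

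Upstream of Tead4 and Cdx2, all 17 listed Hippo and TEAD genes had a row. In the authors' deposited table, 10 were called negative and 1 positive, against 15.9% and 14.6% of all genes. The median log2 fold change of the 17 was -0.46. Amotl1, an angiomotin that holds YAP at junctions, had -1.71 ± 0.16 (SE) in the authors' deposited table (adjusted p = 2.31e-24). Its relative Amot, chosen for mention after its value was seen, had -3.46 ± 0.59 (SE) in the authors' deposited table (adjusted p = 6.28e-08). Sav1, the scaffold of the Hippo kinases, stood at -0.61 ± 0.089 (SE) in the authors' deposited table (adjusted p = 1.66e-10). Nf2, which activates the pathway at the membrane, was the 1 positive gene, at 0.51 ± 0.085 (SE) in the authors' deposited table (adjusted p = 2.79e-08). Yap1 itself, the coactivator bound by TEAD4, stood at -0.12 ± 0.097 (SE) in the authors' deposited table (adjusted p = 0.384) at a mean normalized count of 6779. Wwtr1, the gene of TAZ, chosen for mention after its value was seen, had -0.81 ± 0.18 (SE) in the authors' deposited table (adjusted p = 5.25e-05). The called genes thus include restrainers of YAP, the coactivator gene Wwtr1 and TEAD factors, and RNA levels do not show the activity of the pathway.

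The Notch genes, the other input to Cdx2, were split. Of 9 with a row, 3 were called negative and 3 positive in the authors' deposited table, against 15.9% and 14.6% of all genes. Their median log2 fold change was -0.18. Rbpj, the DNA-binding effector of Notch, had 0.72 ± 0.12 (SE) in the authors' deposited table (adjusted p = 1.18e-08). The receptors Notch2 and Notch3 had -0.60 and -0.72 with standard errors of 0.13 and 0.18 in the authors' deposited table. The ligand-like gene Dll3 had -0.71 ± 0.23 (SE) in the authors' deposited table (adjusted p = 0.00837). Notch1 stood at 0.12 ± 0.19 (SE) in the authors' deposited table, without a call.

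Beside the members, 15 of 16 other trophoblast regulators had a row. In the authors' deposited table, 5 were called negative and 2 positive, against 15.9% and 14.6% of all genes. The median log2 fold change of the 15 was -0.46. Eomes, a T-box factor of trophoblast stem cells and of the primitive streak, had -2.22 ± 0.33 (SE) in the authors' deposited table (adjusted p = 3.6e-10). Fgfr2, the receptor through which FGF4 sustains trophoblast stem cells, had -0.66, and the chromatin organiser Satb1 had -1.02, with standard errors of 0.16 and 0.27 in the authors' deposited table. Klf5, shared by trophectoderm and pluripotent cells, was positive at 0.60 ± 0.071 (SE) in the authors' deposited table (adjusted p = 1.1e-15). Ets2, a factor of trophoblast self-renewal, stood at -0.17 ± 0.12 (SE) in the authors' deposited table, without a call.

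Genes of the trophectoderm epithelium followed in part. Of 20 with a row, 11 were called negative and 3 positive in the authors' deposited table, against 15.9% and 14.6% of all genes. Their median log2 fold change was -0.39. The keratins Krt19, Krt8 and Krt18 and the tight junction protein gene Cldn7 stood at -4.73, -4.39, -3.96 and -2.27 on the log2 scale of the authors' deposited table. Their standard errors in the authors' deposited table were 0.31, 0.52, 0.51 and 0.18. Cdh1, the epithelial cadherin that stem cells express as well, stood at 0.11 ± 0.10 (SE) in the authors' deposited table, without a call. Listed products of trophoblast and placenta, early ones among them, were mostly not represented, with a row for 6 of 17. Of these 6, Cd9 at 0.74 and Plet1 at 2.26 were called positive, opposite in sign to the 7 factors, in the authors' deposited table. Peg10 at -1.81 was called negative and Rhox6 at 0.25 was without a call in the authors' deposited table. Over all genes, 14.6% were called positive and 15.9% negative.

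The listed pluripotency factors of the inner cell mass had the other sign. Of 9 with a row, 7 were called positive and 0 negative in the authors' deposited table, against 14.6% and 15.9% of all genes. Their median log2 fold change was 0.73. The lowest p-values were those of Tbx3 at 2.39, Zfp42 at 1.10, Esrrb at 0.91 and Nanog at 0.73, with standard errors between 0.092 and 0.18 in the authors' deposited table. Pou5f1, chosen for mention after its value was seen, was lower at 0.26 ± 0.10 (SE) in the authors' deposited table (adjusted p = 0.0364). With the authors' limit of 0.5 on the absolute log2 fold change, 5 of the 9 were called positive, without Pou5f1. Sox2 stood at 0.14 ± 0.14 (SE) in the authors' deposited table, without a call.

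**Figure D5:**
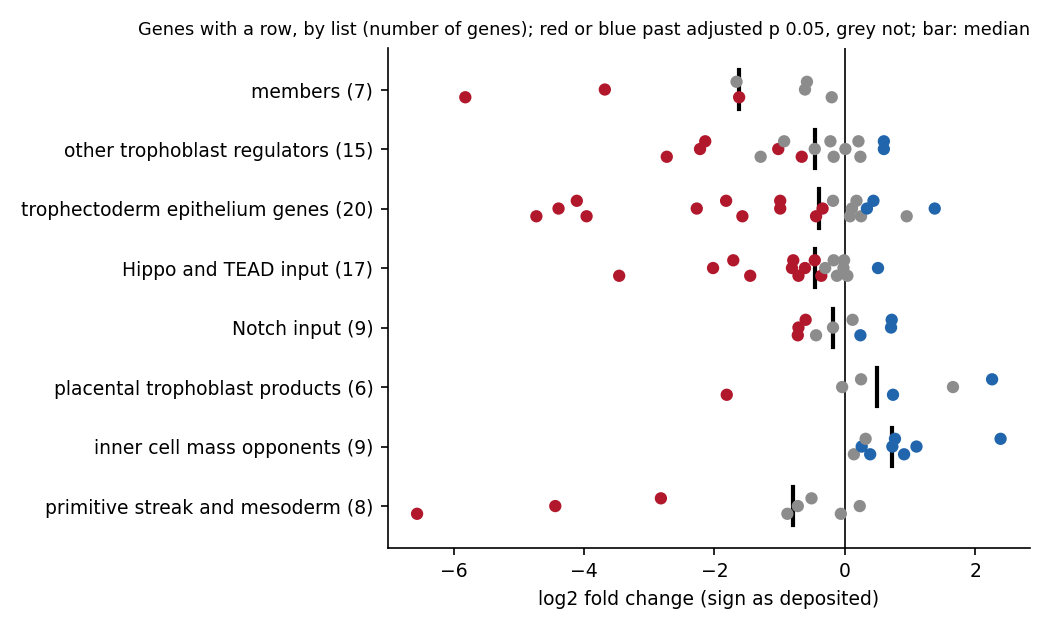
Log2 fold change (horizontal axis, sign as deposited) of every gene with a row in 8 lists, with the number of genes in brackets; red and blue mark negative and positive calls, grey no call, and the black bar the median. The 7 factors are all below 0, the 9 pluripotency genes are all above 0 and the other lists span both signs.

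Markers of other cell types, among them some in which these factors are active, were counted in the same way. Over all genes, 15.9% were called negative and 14.6% positive. Blood, named above for Gata2, had no marker list. Of 10 primitive streak and mesoderm markers, 8 had a row, with a summed mean normalized count of 1278, and 3 were called negative in the authors' deposited table. These were T at -6.56, Msx1 at -4.44 and Mixl1 at -2.82, with standard errors of 0.79, 0.80 and 0.62 in the authors' deposited table. T alone held 1106 of that sum. Pdgfra at -0.88, Snai1 at -0.72, Tbx6 at -0.51, Kdr at -0.06 and Mesp2 at 0.23 were without a call. Their mean normalized counts lay between 9.33 and 27.8. Mesp1 and Foxf1 of that list had no row. Of 10 fibroblast markers, 8 had a row, with a summed mean normalized count of 6532, and 5 were called negative in the authors' deposited table. Most of that sum, 4399, came from Vim, which was without a call at 0.20. Tagln, called at -5.96, held 1849. The other called genes, Twist1, Acta2, Col1a1 and Col1a2, had mean normalized counts between 10.1 and 55.9. Of 7 germ cell markers, relevant to Tfap2c, 3 were called negative and 2 positive in the authors' deposited table. Of 7 surface ectoderm markers, relevant to Tfap2a and Gata3, 4 had a row and 1, Epcam at -0.37, was called negative in the authors' deposited table. Of 6 neural crest markers, 3 had a row and 1, Foxd3 at 1.12, was called positive in the authors' deposited table. Of 8 primitive endoderm markers, 6 had a row, and Lama1 at 1.91 and Dab2 at -2.18 were called in the authors' deposited table. The marker genes named here were chosen after their values were seen, and levels of the lists by sorted group were not analysed here. The part of these cell types in the values of Cdx2, Hand1 and the other factors was not tested.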

How the data were processed

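Polyadenylated RNA of 6 sorted samples in 2 groups was sequenced on a DNBSEQ instrument, per the labels' protocols. The submitters' processing notes name FastQC 0.12.1, Trimmomatic 0.39, STAR 2.7.11b, RSEM 1.3.3, DESeq2 1.45.3 and GRCm39, without roles. The authors' deposited table held 17110 genes. Per the file headers, it gives a mean normalized count (a signal), a log2 fold change with its standard error on the log2 scale, a statistic (a score), a p-value and an adjusted p-value. The statistic deposited by the authors differed from the fold change divided by its standard error by at most 5.77e-07. The model formula, filters, annotation release and numerator are not given in the sources used here.

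The 6 columns of a count table matched no sample label. Their values were not used, so no edgeR fit was made and depth per sample is unknown here. Only gene IDs were read: 17231, of which 121 had no row in the comparison table, and Elf5 was in neither list.

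Intervals are the fold change plus or minus the normal quantile for 95% times its standard error. Implied group means are the pair of values that average to the mean count and have the fold change as their ratio, assuming 3 libraries of equal depth per group. Motifs, lengths and intervals were computed with Python 3.11.15, pandas 2.3.3, numpy 2.4.6 and scipy 1.17.1. Procedures were tested on simulated data for this comparison: 200 of 17110 genes, all averaging 100 counts or more, were given a log2 change of 1, of which 91.5% were recovered, and 3.68% of calls were false. With a log2 change of 2, 99.5% were recovered and 7.01% of calls were false. The simulated fold changes were drawn with the deposited standard errors and tested with those same errors, and no counts or libraries were simulated. The simulation therefore checks the procedures and cannot check the deposited standard errors. The 200 changed genes were also far fewer than the 2719 negative and 2492 positive calls over all genes. Recovery at lower counts, where Hand1 and Tfap2a lie, was not simulated.

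The members and lists were chosen with earlier results of these data known. The named genes are the members, their paralogs, and from each list up to 4 called genes with the smallest p-values and the uncalled gene with the highest mean count. Of the 8 members, 5 had a RefSeq promoter window. Counting was not stated to use strand: GENCODE M21 lists opposite-strand genes over Gata3, Tfap2a and Tead4, so these values carry that uncertainty. It also lists a gene on the same strand over Gata3, 9230102O04Rik, which counting by strand would not separate and which had no row.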

Additional observations from a re-analysis of the deposited data

How the results depend on the processing

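Of the 8 alternatives, 6 leave the fold changes as deposited, so they bear on the calls and not on the signs. The others subtract 0.0097 or 0.093 from all genes alike, which can change the sign of small positive values. For the 7 factors, all negative as deposited, a change of sign was not possible. Of 52 values of the 7 factors, 49 were unchanged in call, 2 were weaker (Tfap2a at an adjusted p-value under 0.01 and against a fold change of 0.5) and 1 was stronger (Tfap2c after ribosomal centring). Many of these outcomes were fixed in advance. A stricter limit cannot add a call, and recomputing the adjustment gave the same number of calls as deposited. The 49 are therefore no measure of stability. Among genes averaging 50 counts or more, 1 of 3 factors was called negative, because Hand1, Tfap2a, Gata2 and Gata3 fall under that minimum. Other counts moved by over 1.5 times in the listed genes only, mostly through the stricter limit itself. The counts below are set against the calls of the main setting, not the genes tested. At an absolute log2 fold change over 1, 1315 of 2719 negative and 957 of 2492 positive calls remained over all genes. Negative calls were then 4 of 10 in the Hippo and TEAD list, 0 of 3 in Notch, 1 of 3 in paralogs and 7 of 11 in epithelium. Positive calls at that limit were 0 of 1 in Hippo and TEAD, 0 of 3 in Notch, 0 of 2 in other trophoblast regulators, 1 of 3 in epithelium, 1 of 2 in placental products and 2 of 7 in pluripotency. In the test against 0.5, negative calls were 4 in Hippo and TEAD, 0 in Notch, 1 in other regulators, 1 in paralogs and 6 in epithelium, and positive calls were 0 in Hippo and TEAD, 0 in Notch, 0 in other regulators, 0 in epithelium, 1 in placental products and 3 in pluripotency. Over all genes, that test left 927 negative and 659 positive calls. With the authors' limit of 0.5, paralogs kept 1 negative and epithelium 1 positive call, while 2067 negative and 1609 positive calls remained over all genes. At an adjusted p-value under 0.01, and after ribosomal centring, Notch had 1 and other regulators 1 positive call; the cause was not tested.

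Of all genes, 15.9% were called negative as deposited and 20.5% after ribosomal centring. The edgeR fit, DESeq2 on counts, the count filter and leaving out each replicate were not run for lack of a match between count columns and samples, so whether 1 library decides a value is not answered. No paired analysis was possible because no count column was tied to a sample or its replicate number. Protein identity between paralogs was not computed. At its standard error, a factor needed an absolute log2 fold change from 0.465 (Tead4) to 2.33 (Cdx2) to pass.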

Other observations

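The standard error of Cdx2 was wide for its mean count, and so were those of other genes. In the authors' deposited table, 96 genes (0.56%) had a standard error at least 3 times the median of genes within 1.5-fold of their mean count, a limit chosen after the values were seen. Cdx2, at 3.7 times, was the 1 trophectoderm factor among them, and Tfap2c was at 2.3 times. Of the genes in the lists and marker lists used here, the set held T at 6.5 times the typical standard error, Krt8 at 4.7, Krt18 and Tagln at 4.5, Amot at 4.4, Dsp at 4.2 and Peg10 at 3.8. Of the 96, 66 had a negative and 30 a positive fold change, against 49.0% negative over all genes. Of them, 37 were called negative and 1 positive, against 15.9% and 14.6% of all genes. A low count in the lower group also raises the counting error, and its part in this set was not tested. The mean normalized counts of Dsp, Peg10 and Tfap2c in the authors' deposited table were 1270, 26582 and 1777. Whether these genes vary in the same libraries was not analysed here.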
